A study of Homo sapiens with 8 samples.

Results

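The 10 genes described here encode the cyclins, kinases and inhibitors that control passage from G1 into S phase: the D-type cyclins CCND1, CCND2 and CCND3, their kinase partners CDK4 and CDK6, the inhibitors CDKN1B (p27) and CDKN2C (p18), the E-type cyclins CCNE1 and CCNE2, and the retinoblastoma protein RB1. They were chosen by gene symbol, and all 10 were found among the 47591 genes of the expression table. Of these, 9 averaged 10 or more normalized counts per library across the 8 libraries and were tested, and CCND2 did not. D-type cyclins bind CDK4 or CDK6 and begin the phosphorylation of RB1, which otherwise holds E2F transcription factors inactive on the promoters of S-phase genes. E-type cyclins with CDK2 complete this step and are themselves E2F targets, whereas p18 blocks CDK4 and CDK6 and p27 blocks mainly CDK2 complexes. In neuroblastoma, a childhood tumor of the sympathetic lineage, the cyclin D1 and CDK4 or CDK6 axis is known for high activity.

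PolyA RNA was sequenced from 3 lines of SH-SY5Y, a human neuroblastoma cell line. G2 cells (3 libraries) carried a CRISPR/Cas9 edit of the splicing factor gene PRPF40B, and SCR cells (3 libraries) had received a scrambled guide. WT cells (2 libraries) were the unedited parent. Each genotype was represented by 1 line, and libraries of a line were labelled as biological replicates, with no source given for each culture, so p-values measure the spread between these libraries. G2 cells came from colonies raised by limiting dilution after puromycin selection, and both G2 and SCR were kept in puromycin. Guide, selection and colony therefore cannot be told apart in any comparison with WT. Between G2 and SCR, each of them 1 line, the guide and other differences between the lines cannot be told apart either. Because the study followed proliferation and the distribution of cells over the cell cycle in G2 cells, the G1 machinery was compared in G2 against SCR, in G2 against WT, and in SCR against WT, a comparison in which neither line carries the guide to PRPF40B.

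PRPF40B itself measured 840, 841 and 918 normalized counts in G2, 1686, 1672 and 1670 in SCR, and 1972 and 1668 in WT, and every G2 library was below every control (exact two-sided permutation test, p = 0.0179, the smallest that 3 libraries against 5 allow). Depth was 59804395 to 81080747 recovered counts per library. The WT libraries differed from each other more than other replicate pairs did, with a mean chi-square per gene of 17.0 against 2.54 to 5.78. Among 10 markers of adrenergic neuroblastoma cells, 7 were lower in G2 than in SCR (11.8% of all tested genes were lower). Against WT, 6 were lower (12.2% of all tested genes), and 4 without WT replicate 1. TH was among both, with 5.65, 0 and 0 normalized counts in G2, and passed the filter through SCR and WT alone. With a mean of at least 100 required, 6 of 9 were lower against SCR and 5 of 9 against WT. At that filter, 23.6% and 27.8% of all genes were called in either direction. The summed level of the 10 markers was 258684 to 261997 in G2, 355690 to 364051 in SCR and 310115 to 321945 in WT. STMN2 was the largest part of it in G2, at 162680 to 168080. Of 9 tested mesenchymal and fibroblast markers, 8 were higher in G2 in both comparisons (15.1% and 17.7% of all tested genes were higher). FN1, listed at 0 in 7 of 8 libraries, was not tested. PRRX1, at 20.7, 48.2 and 22.6 in G2, was listed at 0 in every SCR and WT library. It passed the filter through G2 alone, so its call was fixed in advance. With a mean of at least 100 required, 7 of 8 were higher in both comparisons (23.6% and 27.8% of all genes called in either direction). The summed level of the mesenchymal and fibroblast markers was 247973 to 252730 in G2, 112595 to 119872 in SCR and 81333 to 93457 in WT. VIM (vimentin) alone made up 211960 to 216530, 82625 to 88286, and 54583 to 63778 of that sum. The part of these markers in the results on G1 genes was not tested. In bulk RNA, fewer cells of a type and less RNA per cell cannot be told apart.

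Promoter windows from RefSeq (GRCh38.p14, 250 bases before to 50 after a transcription start) were found for 7 of the 10 genes, with 12 starts in all. CCND1, CCND2 and CCNE2 had no entry. The only RB1 window, chr13:48476200-48476499, lay inside the gene, whose annotation starts at 48303726. It counts among the 12, and a window at the start of the RB1 gene was not examined. Windows of CDK6, CDKN2C and CDKN1B are printed because these genes were called higher in G2 than in SCR and were lowest in SCR in the results that follow, a choice made after their values were seen. CDK4 and RB1 were also lowest in SCR but not called in G2/SCR, and their windows are not printed. A second CDK6 window, chr7:92833910-92834209, held 0 matches and is not printed either. Each is written 5′ to 3′ on the strand of the gene, with capitals marking every match on either strand to 5 motifs: the E2F core (TTNNCGC, where each N is C or G), the cell cycle homology region (TTTGAA), the CCAAT box (CCAAT), the E-box (CACGTG) and the GC box (GGGCGG). The printed CDK6 window is chr7:92836524-92836823 on the minus strand, the CDKN1B window chr12:12717118-12717417 on the plus strand, and the CDKN2C windows are chr1:50960495-50960794, chr1:50968456-50968755 and chr1:50969995-50970294 on the plus strand.
CDK6: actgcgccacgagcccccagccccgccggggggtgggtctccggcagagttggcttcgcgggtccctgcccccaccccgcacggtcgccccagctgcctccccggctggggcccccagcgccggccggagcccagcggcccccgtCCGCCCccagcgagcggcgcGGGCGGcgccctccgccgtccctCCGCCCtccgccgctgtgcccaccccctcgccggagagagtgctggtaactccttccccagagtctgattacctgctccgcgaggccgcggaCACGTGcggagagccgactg
CDKN1B: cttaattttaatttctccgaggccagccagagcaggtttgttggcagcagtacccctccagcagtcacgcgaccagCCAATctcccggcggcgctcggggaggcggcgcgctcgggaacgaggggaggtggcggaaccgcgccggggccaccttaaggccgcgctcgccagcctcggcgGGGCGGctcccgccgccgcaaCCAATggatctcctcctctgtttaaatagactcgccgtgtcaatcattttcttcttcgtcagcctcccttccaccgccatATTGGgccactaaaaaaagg
CDKN2C first start: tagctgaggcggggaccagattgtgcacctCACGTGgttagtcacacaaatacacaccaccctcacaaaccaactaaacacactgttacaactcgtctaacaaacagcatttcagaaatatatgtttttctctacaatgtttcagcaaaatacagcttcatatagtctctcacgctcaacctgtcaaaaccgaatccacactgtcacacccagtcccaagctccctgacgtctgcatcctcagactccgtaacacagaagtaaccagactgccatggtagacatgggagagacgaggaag
CDKN2C middle start: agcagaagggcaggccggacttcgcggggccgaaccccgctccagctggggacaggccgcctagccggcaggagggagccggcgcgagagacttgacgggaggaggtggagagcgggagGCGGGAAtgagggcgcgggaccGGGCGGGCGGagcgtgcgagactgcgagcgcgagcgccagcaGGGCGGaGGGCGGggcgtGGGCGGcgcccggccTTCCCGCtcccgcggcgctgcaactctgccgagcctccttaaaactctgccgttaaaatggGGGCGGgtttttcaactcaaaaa
CDKN2C last start: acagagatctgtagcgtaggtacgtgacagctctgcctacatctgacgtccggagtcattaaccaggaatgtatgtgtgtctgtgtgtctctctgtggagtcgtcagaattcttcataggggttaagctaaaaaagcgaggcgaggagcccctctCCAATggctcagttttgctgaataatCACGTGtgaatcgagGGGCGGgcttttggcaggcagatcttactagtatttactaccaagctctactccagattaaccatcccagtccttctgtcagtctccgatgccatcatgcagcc
The E-box, a site bound by MYC family factors among others, was present in 4 of the 12 windows, in CDK4, CDK6 and 2 of the CDKN2C windows, and in 7.3% of all 35116 windows. Only 1 of the 12 held an E2F core, the middle CDKN2C start, which had a match on each strand and adjoining or overlapping GC boxes; 13.0% of all windows held this core. GC boxes were in 8 of 12 windows (45.0% of all), CCAAT boxes in 4 (34.6% of all) and TTTGAA in 0 (15.2% of all). These matches describe the letters of the windows.

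CCND1, which with CDK4 or CDK6 links growth signals to the cell cycle, increased in steps from WT through SCR to G2. It measured 30566, 31692 and 33175 normalized counts in G2, 21982, 20436 and 20202 in SCR, and 12721 and 14487 in WT. No 2 lines overlapped. The level in G2 was 1.52 times that in SCR (log2 fold change 0.61 ± 0.06 SE, adjusted p = 5.2e-06) and 2.34 times that in WT (1.23 ± 0.07, adjusted p = 3e-08). The SCR line was itself 1.53 times above WT (0.62 ± 0.07, adjusted p = 3.9e-05). A gene was called here when it differed by at least 1.5-fold at an unadjusted p of at most 0.05 in limma, the study's thresholds, and adjusted p-values are Benjamini-Hochberg values over all 18947 genes tested. The calls against SCR and of SCR against WT lay close to the 1.5-fold threshold. Without G2 replicate 3 the G2/SCR value was 0.58 and without SCR replicate 3 it was 0.59, both short of a call, as was 0.52 with all libraries scaled to the same total. The SCR/WT call was lost without SCR replicate 1 (0.58) or WT replicate 1 (0.53).

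CCND2 was listed at 0 in 7 of 8 libraries and at 1.88 normalized counts, or 2 recovered counts, in SCR replicate 2. CUL3, a ubiquitin ligase scaffold that most cells use, was also listed at 0 in all 8 libraries, so a value of 0 in this table need not mean that a transcript was missing. The antisense gene CCND2-AS1, which shares 2423 bases with CCND2, was likewise listed at 0 in all 8. CCND3 had 954, 953 and 913 normalized counts in G2, 820, 810 and 769 in SCR, and 1055 and 806 in WT. The G2 libraries lay above all SCR libraries, and the WT pair spanned both lines. Differences in CCND3 were not called in any comparison, with log2 fold changes of 0.23 (95% interval 0.02 to 0.44) in G2/SCR, 0.03 (-0.21 to 0.26) in G2/WT and -0.21 (-0.44 to 0.03) in SCR/WT. The G2/WT value turned to -0.17 without WT replicate 2, and the SCR/WT value to 0.07 when all libraries were scaled to the same total.

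Per kb of exonic sequence, and with CCND2 as listed, CCND1 made up 97.6% ± 0.15 (SD, n = 3) of the D-type cyclin message in G2, 96.9% ± 0.10 in SCR (n = 3) and 94.6% ± 1.43 in WT (n = 2), and CCND3 made up nearly all of the rest. With the longest transcript as the length, the shares were 95.02%, 93.65% and 89.11%. The G2 share exceeded that of the 5 controls by 1.62 percentage points (exact two-sided permutation test, p = 0.107, adjusted over 3 shares p = 0.125), and by 1.01 points without WT replicate 1 (p = 0.0286).

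**Figure D1:**
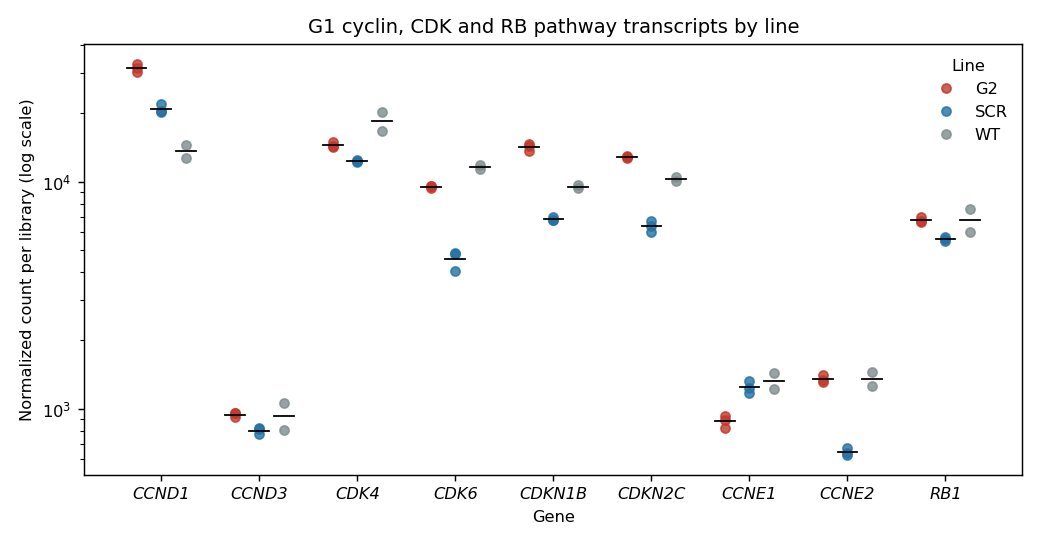
Normalized counts of the 9 tested genes in each library, on a log axis, with G2, SCR and WT side by side and a line at the mean of each line. CCND1 steps up from WT to SCR to G2, while CDK6, CDKN2C and CCNE2 are lowest in the 3 SCR libraries and CCNE1 is lowest in the 3 G2 libraries.

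CDK4 and CDK6, the kinase partners of the D-type cyclins, were each lowest in SCR cells. CDK4 gave 14372, 15007 and 14223 normalized counts in G2, 12419, 12268 and 12393 in SCR, and 20244 and 16783 in WT. All 3 lines were separate, with WT highest and more spread. No CDK4 difference was called, since G2/SCR was 0.23 ± 0.07 on the log2 scale (adjusted p = 0.01), G2/WT -0.34 ± 0.07 (adjusted p = 0.0017) and SCR/WT -0.58 ± 0.07 (adjusted p = 0.0001), a ratio of 0.668 that stopped just short of the threshold and passed it at -0.71 without WT replicate 2.

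CDK6 showed the largest difference among the tested members in SCR/WT, whereas CCNE2 did so in G2/SCR, narrowly ahead of CDK6, and CCND1 in G2/WT. Its counts were 9525, 9419 and 9608 in G2, 4846, 4794 and 4031 in SCR, and 11396 and 11832 in WT. The SCR libraries were far below both other lines, and G2 lay slightly below WT without overlap. In G2, CDK6 was 2.09 times higher than in SCR (log2 1.07 ± 0.07, adjusted p = 9.8e-08), and in SCR it was 0.392 times the WT level (-1.35 ± 0.08, adjusted p = 2.7e-07). Against WT, G2 cells differed by -0.29 ± 0.08 (adjusted p = 0.0077), which was not called.

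The antisense transcript CDK6-AS1, whose annotation shares 91 bases with CDK6, had 106, 75.6 and 61.3 normalized counts in G2, 15.3, 35.7 and 11.3 in SCR, and 180 and 120 in WT. It was thus also lowest in SCR, with log2 fold changes of 2.04 (adjusted p = 0.00079) in G2/SCR and -2.93 (adjusted p = 0.00029) in SCR/WT. The libraries were stranded, but the strand setting of the counting is not given in the sources used here, so reads of overlapping genes on opposite strands cannot be told apart.

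Per kb, CDK4 formed 85.8% ± 0.46 (SD, n = 3) of the CDK4 plus CDK6 message in G2, 91.5% ± 0.80 in SCR (n = 3) and 86.2% ± 1.89 in WT (n = 2). G2 and WT libraries overlapped, and the 3 SCR libraries were above all others. The difference of G2 from the 5 controls was -3.58 points (exact two-sided permutation test, p = 0.125, adjusted over 3 shares p = 0.125).

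The inhibitors CDKN1B and CDKN2C had their highest level in G2 and their lowest in SCR. CDKN1B measured 14615, 13608 and 14367 normalized counts in G2, 6772, 6773 and 6977 in SCR, and 9356 and 9667 in WT. The 3 lines did not overlap. In G2 it was 2.08 times higher than in SCR (log2 1.05 ± 0.05, adjusted p = 5.9e-09), and 1.49 times higher than in WT (0.58 ± 0.06, adjusted p = 3.6e-06), a value that missed the 1.5-fold threshold narrowly. That G2/WT difference was called under TMM scaling (0.59), with all libraries at the same total (0.76), without G2 replicate 2 (0.61) and without WT replicate 2 (0.60). SCR was below WT by a log2 value of -0.48 ± 0.06 (adjusted p = 6e-05), not called.

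CDKN2C gave 12914, 12992 and 12678 normalized counts in G2, 5975, 6365 and 6709 in SCR, and 10460 and 10119 in WT. Again the lines were separate, in the order SCR, WT, G2. The G2/SCR ratio was 2.03 (log2 1.02 ± 0.05, adjusted p = 1.7e-08) and the SCR/WT ratio 0.617 (-0.70 ± 0.06, adjusted p = 6.8e-06). G2 exceeded WT by 0.32 ± 0.06 on the log2 scale (adjusted p = 0.00076), which was not called. The SCR/WT call was lost when libraries were scaled to the same total (-0.42).

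Of the E-type cyclins, CCNE1 was lowest in G2, whereas CCNE2 was lowest in SCR. CCNE1 counts were 932, 892 and 822 in G2, 1317, 1171 and 1230 in SCR, and 1432 and 1224 in WT. Every G2 library was below every control library. The G2/WT difference was called at a ratio of 0.664 (log2 -0.59 ± 0.10, adjusted p = 0.00025), and G2/SCR was not, at 0.712 (-0.49 ± 0.09, adjusted p = 0.00046). The G2/WT call lay on the threshold, and was lost under TMM scaling (-0.57), under the same total (-0.40), without G2 replicate 3 (-0.54) and without WT replicate 1 (-0.47). SCR and WT overlapped, and their difference of -0.10 (95% interval -0.30 to 0.11) turned to 0.18 when all libraries were scaled to the same total and to 0.02 without WT replicate 1.

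CCNE2 had 1411, 1342 and 1307 normalized counts in G2, 623, 668 and 634 in SCR, and 1259 and 1452 in WT. G2 and WT overlapped, and all 3 SCR libraries were below them. The G2/SCR ratio was 2.11 (log2 1.08 ± 0.08, adjusted p = 2.7e-07) and the SCR/WT ratio 0.473 (log2 -1.07 ± 0.09, adjusted p = 3.9e-06). Between G2 and WT the log2 difference was 0.00 (95% interval -0.19 to 0.19), and its sign changed without G2 replicate 1 or WT replicate 1.

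CCNE2 shares 1523 annotated bases with INTS8, an Integrator subunit gene on the opposite strand. INTS8 measured 3291, 3020 and 2848 normalized counts in G2, 1866, 1868 and 1821 in SCR, and 2318 and 2152 in WT, and was called higher in G2/SCR (log2 0.72, adjusted p = 2.7e-06) but not in G2/WT (0.45) or SCR/WT (-0.27). Its order of lines differed from that of CCNE2, since INTS8 was higher in G2 than in WT.

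Per kb, CCNE1 formed 53.8% ± 0.75 (SD, n = 3) of the E-type cyclin message in G2, 77.5% ± 1.64 in SCR (n = 3) and 63.6% ± 4.88 in WT (n = 2). The share was below 55% in each G2 library and above 60% in each control. With the longest transcript as the length, it was at most 53.1% in G2 and was 59.0% in WT replicate 2, the lowest control. The difference of G2 from the 5 controls was -18.1 percentage points (exact two-sided permutation test, p = 0.0357), and the p adjusted over 3 shares was 0.107.

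**Figure D2:**
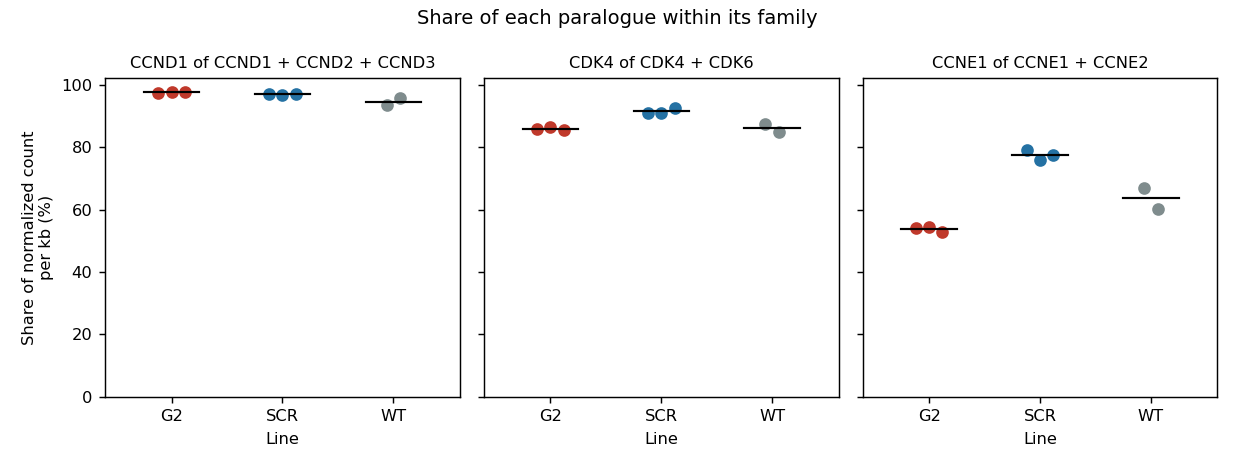
Share of the normalized count per kb taken by CCND1 among D-type cyclins, by CDK4 among CDK4 and CDK6, and by CCNE1 among E-type cyclins, in percent, with a dot per library and a line at the mean of each line. CCND1 exceeds 93% in every library, CDK4 is highest in SCR (91.5%), and CCNE1 falls from 77.5% in SCR to 53.8% in G2.

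RB1, the pocket protein that the cyclin D kinases phosphorylate, gave 7017, 6664 and 6695 normalized counts in G2, 5456, 5714 and 5571 in SCR, and 6023 and 7549 in WT. SCR was below both other lines and the WT pair enclosed the G2 libraries. RB1 was not called in any comparison, with log2 values of 0.28 ± 0.07 in G2/SCR (adjusted p = 0.0073), 0.01 (95% interval -0.17 to 0.19) in G2/WT and -0.27 ± 0.08 in SCR/WT (adjusted p = 0.023). The SCR/WT value was 0.00 when libraries were scaled to the same total. LPAR6, a receptor gene on the opposite strand inside RB1, had 46.1, 83.2 and 79.5 normalized counts in G2, at most 2.04 in SCR, and was listed at 0 in WT.

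Levels per kb depended on the length used. With all exonic bases of a gene, the G2 means were CCND1 (6682 normalized counts per kb), CDK4 (4698), CDKN2C (4262), CDKN1B (1534), RB1 (1056), CDK6 (778), CCNE1 (358), CCNE2 (308) and CCND3 (163). With the longest transcript, CDK4 (7793) and CCND1 (7506) changed places and overlapped, CDKN1B came to 3275, and CCND3 (393) overlapped CCNE2 (406). In WT, CDK4 was highest with either length, at 5984 and 9927, above CDKN2C (3409 and 3543) and CCND1 (2857 and 3210). In SCR, CDK6 (372 and 391) was below CCNE1 (504 and 634) with either length, whereas in G2 and WT it was above. Lengths were taken from GENCODE 44, not from the annotation used for counting, and the order of these levels is therefore approximate.

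Set side by side, 5 of the 9 tested genes were called in G2/SCR, and all 5 were higher in G2: CCND1, CDK6, CDKN1B, CDKN2C and CCNE2. Of all tested genes, 26.9% were called in this comparison and 15.1% were higher. In G2/WT, CCND1 was called higher and CCNE1 lower, 2 of 9 against 29.9% of all genes (17.7% higher and 12.2% lower). In SCR/WT, 4 of 9 were called against 16.3% of all genes, with CCND1 higher (10.7% of all genes were higher) and CDK6, CDKN2C and CCNE2 lower (5.63% of all genes were lower). The comparisons share their libraries, and so are not independent of each other.

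The pattern higher in G2 than in SCR, lower in SCR than in WT and not called between G2 and WT was held by CDK6, CDKN2C and CCNE2, and by 1.21% of all tested genes. SCR was below all libraries of the other lines for 6 of the 9 genes (CDK4, CDK6, CDKN1B, CDKN2C, CCNE2 and RB1), against 12.1% of all tested genes. Of the 9, 0 met the criterion used here for a change specific to G2, which asks for a call in the same direction in G2/SCR and G2/WT and no call in SCR/WT. With limma, 13.8% of all genes met it. At an unadjusted p of at most 0.05 and no fold threshold, 9 of the 9 genes differed in G2/SCR, 6 in G2/WT and 7 in SCR/WT, against 55.0%, 57.5% and 44.4% of all tested genes. The count of 0 turned to 1 or 2 in other settings, through CDKN1B, CCND1 or both, and DESeq2 and edgeR were run for G2/SCR alone, where each also called 5.

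Library values did not overlap for 9 of 9 genes in G2/SCR (61.8% of all tested genes), for 6 in G2/WT (65.4%) and for 7 in SCR/WT (55.3%). G2 was separate from all 5 controls for CCND1, CDKN1B, CDKN2C and CCNE1, 4 of 9 against 42.5% of all genes. In an exact two-sided permutation test of 3 G2 against 5 control libraries, p was 0.0179 for CCND1, CDKN1B and CCNE1, 0.0357 for CDKN2C, 0.107 for CCNE2, 0.143 for CCND3, 0.161 for RB1, 0.321 for CDK6 and 1 for CDK4. The test pools SCR and WT, though these lines were themselves separate for 7 of the 9 genes. Where G2 lay between them, as for CDK4 and CDK6, a high p does not show that G2 equals either line. Median log2 fold changes over the 9 genes were 0.61 in G2/SCR, 0.01 in G2/WT and -0.48 in SCR/WT, beside -0.01, 0.01 and 0.01 over all tested genes.

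**Figure D3:**
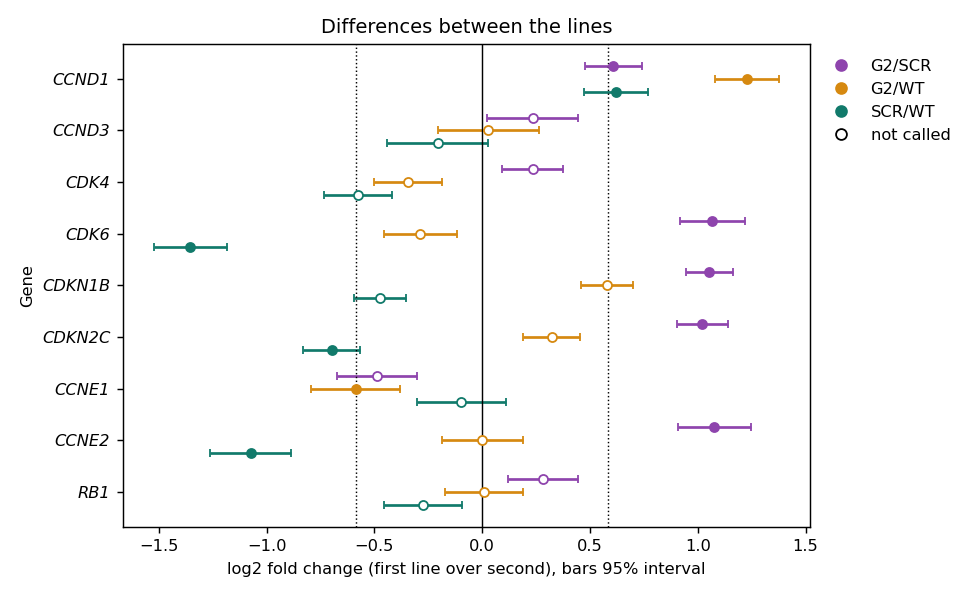
Log2 fold changes of the 9 tested genes with 95% intervals in the 3 comparisons, with dotted lines at 1.5-fold and open symbols for values not called. CDK6, CDKN2C and CCNE2 have G2/SCR values above 1 and SCR/WT values of -0.70 or lower, with G2/WT values between -0.29 and 0.32.

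To set each gene beside its surroundings, the 20 expressed genes on each side of each member were described in the same fit. For every tested member but CCNE2, the median log2 fold change of these 40 neighbours lay between -0.17 and 0.19 in all 3 comparisons. CCND1 exceeded all 40 of its neighbours on chromosome 11 in each comparison, and CDK6 was below all 40 of its neighbours on chromosome 7 in SCR/WT. CCNE2, on chromosome 8, was the exception. Its neighbours had a median of 0.81 in G2/SCR and of 0.80 in G2/WT, where 37 of 40 were above 0 in both, and of -0.09 in SCR/WT. CCNE2 itself therefore stood 0.27 above its neighbours in G2/SCR, 0.80 below them in G2/WT and 0.98 below them in SCR/WT on the log2 scale.

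Over chromosome 8 as a whole, 305 of 464 expressed genes (65.7%) had a G2/SCR value above 0, with a median of 0.28, against a median of 0.00 over other chromosomes. The genes most like CCNE2 over the 8 libraries, of 13065 compared, were MCM4 (Pearson r = 0.998), PRXL2A (0.996), EFR3A (0.993), MZT1 (0.992) and TOM1L1 (0.991). MCM4 and EFR3A also lie on chromosome 8. These correlations are descriptions over 8 libraries that fall into 3 lines.

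**Figure D4:**
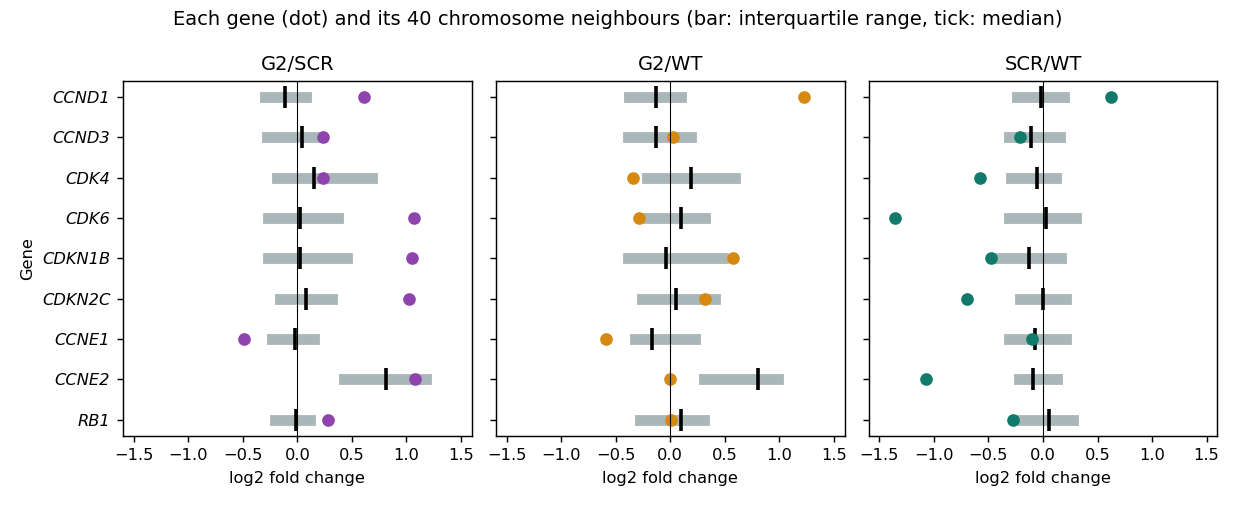
Log2 fold change of each tested gene (dot) beside the median (tick) and interquartile range (bar) of its 40 chromosome neighbours, 1 panel per comparison. The CCNE2 neighbours are shifted to medians of 0.81 and 0.80 in both G2 comparisons, and the neighbours of the other genes are centered near 0.

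Of 6 further CDK inhibitor genes, 0 were called higher and 2 lower in G2/SCR (15.1% and 11.8% of all genes). In G2/WT, 2 were higher and 1 lower (17.7% and 12.2% of all genes). In SCR/WT, 3 were higher and 2 lower (10.7% and 5.63% of all genes). The 2 lower in SCR/WT were CDKN1C and CDKN3 (-0.59), and the CDKN3 call was lost under TMM scaling (-0.58) and under the same total (-0.32), and the count was also 1 without SCR replicate 1 or WT replicate 1. CDKN1A (p21), a p53 target that blocks cyclin-CDK complexes, was the most abundant of them by count. It measured 11489, 12873 and 13793 normalized counts in G2, 23053, 22684 and 22161 in SCR, and 4580 and 4019 in WT. The lines did not overlap, and CDKN1A was 5.26 times higher in SCR than in WT (adjusted p = 3.5e-09), 2.96 times higher in G2 than in WT (adjusted p = 1.3e-08) and 0.562 times the SCR level in G2 (adjusted p = 1.2e-06). Its order of lines, WT, G2, SCR, was held by none of the 9 tested genes described above.

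CDKN2A, which encodes p16 and ARF, was higher in SCR, at 3889, 3445 and 3022 normalized counts against 870, 1102 and 984 in G2 and 1080 and 663 in WT. It was 3.96 times higher in SCR than in WT (adjusted p = 7e-06) and fell in G2/SCR to a ratio of 0.285 (adjusted p = 1.4e-06), with no call in G2/WT. CDKN2B (p15) had 32.2 to 57.4 normalized counts in G2 and 51.0 to 65.0 in SCR, and in WT it stood at 7.45 and 1.99, under a floor of 9 recovered counts that lay at 6.80 to 11.2 normalized counts across libraries. CDKN1C (p57) was lower in G2 and SCR than in WT, with 168 to 315 normalized counts in G2, 216 to 258 in SCR, and 792 and 429 in WT (log2 -1.32 and -1.28, adjusted p = 0.0013 and 0.0029).

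Of 12 RB family and E2F-DP genes, 3 were called higher and 0 lower in G2/SCR (15.1% and 11.8% of all genes). In G2/WT, 1 was higher and 2 lower (17.7% and 12.2% of all genes). In SCR/WT, 0 were higher and 5 lower (10.7% and 5.63% of all genes). RBL2 (p130), the pocket protein of quiescent cells, rose in both G2 comparisons, with 2664, 2577 and 2633 normalized counts in G2, 1763, 1731 and 1711 in SCR, and 1240 and 1406 in WT. It was 1.51 times higher in G2 than in SCR (log2 0.60, adjusted p = 9.7e-06), a call lost at 0.51 when libraries were scaled to the same total, and 1.98 times higher than in WT (log2 0.99, adjusted p = 3.3e-07). RBL1 (p107) instead followed the CCNE2 order, at 1272 to 1492 in G2, 666 to 727 in SCR, and 1311 and 1838 in WT.

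E2F1 and E2F2, activators of S-phase genes, were lower in G2 and SCR than in WT. E2F1 gave 3805 to 3915 normalized counts in G2, 3532 to 3780 in SCR, and 7953 and 6904 in WT, with ratios of 0.520 in G2/WT (adjusted p = 3.8e-07) and 0.490 in SCR/WT (adjusted p = 1.1e-06). E2F2 had ratios of 0.377 (adjusted p = 1.8e-08) and 0.443 (adjusted p = 6.8e-07). Neither was called in G2/SCR.

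Of 24 E2F target genes of the G1/S transition, 20 were lower in G2 than in WT (12.2% of all genes were lower). In SCR, 23 were lower than in WT (5.63% of all genes), and 0 were higher in either comparison. In G2/SCR, 1 was higher and 0 lower (15.1% and 11.8% of all genes). Medians were -0.74 in G2/WT, -0.84 in SCR/WT and 0.11 in G2/SCR, and the summed level was 176244 to 182335 normalized counts in G2, 168135 to 171659 in SCR and 296405 to 305030 in WT. PCNA, the DNA polymerase clamp, had 17210, 16827 and 17254 normalized counts in G2, 18400, 19629 and 20336 in SCR, and 38198 and 37267 in WT. The 1 target called higher in G2/SCR was MCM4, a subunit of the replicative helicase on chromosome 8 (log2 0.77, adjusted p = 1.1e-07). It measured 9937, 9396 and 9397 in G2, 5574, 5639 and 5624 in SCR, and 9245 and 9758 in WT. The 40 neighbours of MCM4 had medians of 0.44 in G2/SCR, where 33 were above 0, 0.29 in G2/WT and -0.04 in SCR/WT. Like CCNE2, MCM4 was not called between G2 and WT (0.01, adjusted p = 0.88); the other 3 targets not called there, POLA1, SLBP and GINS1, had values of -0.39, -0.57 and -0.30.

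The counts against WT depended on the scaling. Scaling all libraries to the same total moved the median of all genes by -0.09 in G2/SCR, 0.19 in G2/WT and 0.28 in SCR/WT on the log2 scale, and the share of called genes that were higher from 59.3% to 75.8% in G2/WT, from 65.6% to 90.7% in SCR/WT and from 56.2% to 47.4% in G2/SCR. Under it, 31.4% of all genes were called in G2/WT and 23.1% in SCR/WT, in either direction, most of them higher. With this scaling, 9 E2F targets were lower in G2/WT and 10 in SCR/WT, with medians of -0.56 and -0.57. Without WT replicate 1 the counts were 18 and 24, and without WT replicate 2 they were 19 and 22.

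Of 16 mitotic genes, 0 were called in G2/SCR or G2/WT (26.9% and 29.9% of all genes), where their medians were 0.29 and -0.28. In SCR/WT, 6 were lower (median -0.53), against 5.63% of all genes. That count was 1 under the same total, where 23.1% of all genes were called in either direction, 90.7% of them higher. Without WT replicate 1 the count was 4, where 15.0% of all genes were called in either direction. MKI67, the Ki-67 proliferation marker, measured 13875, 14236 and 13825 normalized counts in G2, 12773, 11028 and 10623 in SCR, and 14689 and 19643 in WT, and was not called in any comparison. Of 8 DREAM and MYB-MuvB subunits, 1 was higher in each G2 comparison, near the 15.1% and 17.7% of all genes. It was MYBL1 (log2 0.97, adjusted p = 0.00011 against SCR and 0.88, adjusted p = 0.00055 against WT). The 40 neighbours of this chromosome 8 gene had medians of 0.55 and 0.67. Of the same list, 1 was lower in G2/WT and 2 in SCR/WT (12.2% and 5.63% of all genes). They were MYBL2 in G2 and SCR (-0.77 and -0.96) and FOXM1 in SCR (-0.78). Under the same total, these counts fell to 0 and 1 (31.4% and 23.1% of all genes called in either direction). Among 9 other G1/S kinases, cyclins and CDC25A, 0 were called in G2/SCR (26.9% of all genes). In G2/WT 1 was lower (12.2% of all genes) and in SCR/WT 3 were lower (5.63%), the last falling to 0 under the same total. CDC25A, the phosphatase that activates CDK2, was lower against WT in G2 (-0.99, adjusted p = 5.7e-07) and in SCR (-0.72, adjusted p = 3.1e-05).

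Of 10 tested genes for the turnover of G1 cyclins and p27, 2 were called higher in G2/SCR, beside 15.1% of all genes. Against WT, 2 were called higher in G2 (17.7% of all genes) and 3 lower in SCR (5.63% of all genes). The count of 3 fell to 0 under the same total (23.1% of all genes called in either direction). CUL1, the scaffold of SCF ubiquitin ligases, gave 16806, 16506 and 15550 normalized counts in G2, 7190, 7760 and 7589 in SCR, and 9343 and 9526 in WT. It was 2.17 times higher in G2 than in SCR (log2 1.12, adjusted p = 5.8e-09) and 1.73 times higher than in WT (0.79, adjusted p = 4e-07). FBXO4, an F-box protein described for cyclin D1, was higher in G2/SCR (1.14, adjusted p = 1.2e-05) and not called in G2/WT. SKP2, the F-box protein that targets p27, was lower in SCR than in WT (-0.67, adjusted p = 2.3e-05) and was not called in either G2 comparison.

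**Figure D5:**
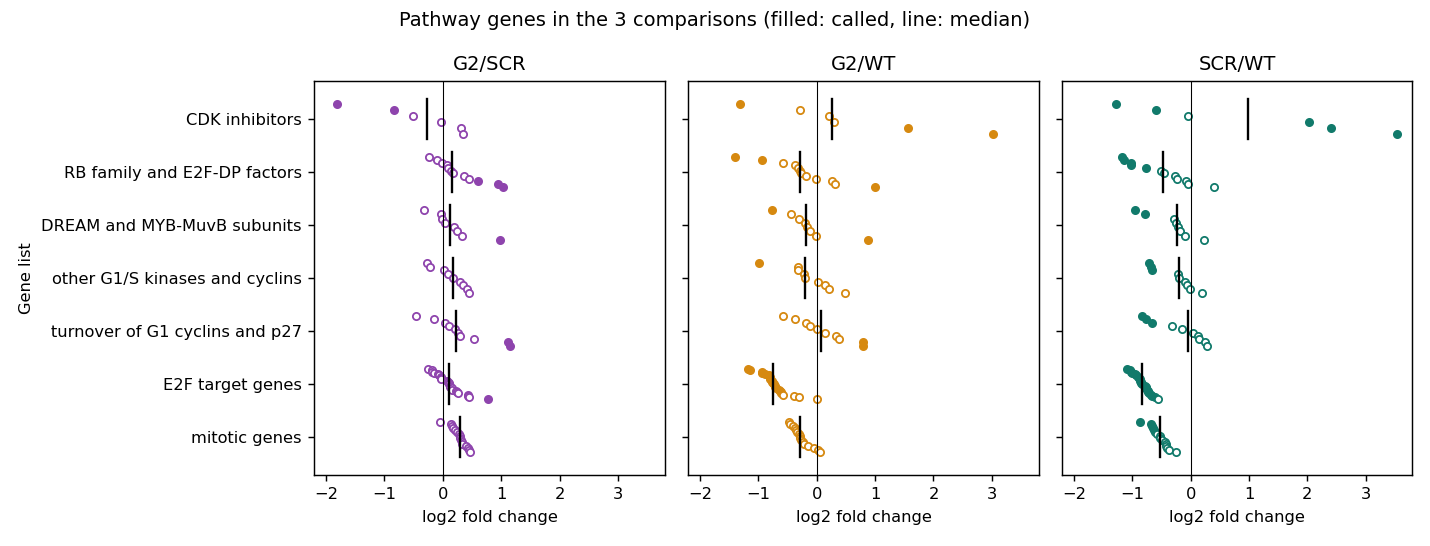
Log2 fold changes of the genes of 7 pathway lists in the 3 comparisons, with filled symbols for called genes and a line at each median. E2F targets are centered at 0.11 in G2/SCR and at -0.74 and -0.84 in the comparisons with WT, and CDK inhibitors spread from -1.81 to 3.53.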

How the data were processed

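The deposited table held gene-level counts normalized by the authors with DESeq2 (signal values, not whole counts), made by mapping paired reads to hg38 with STAR and counting with featureCounts on FAST DB annotations, per the submitters' processing notes and the study's methods. The strand setting is not given in the sources used here. Values in the 8 libraries were whole multiples of 1 step per library (100% within a tolerance of 0.05), which returned counts for the count models; in WT replicate 2 the step, 0.993, lies so near 1 that this check is weaker. Of the small recovered counts, 71.3% to 75.6% were multiples of 3, which no source used here explains. On the assumption that 3 counts are 1 fragment, libraries held 19934798 to 27026916 fragments. The floor used for low genes, 3 such fragments or 9 counts, rests on that assumption and reflects counting error alone.

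The 18947 of 47591 genes that averaged 10 or more were fitted in 1 model with a mean per line, on log2(normalized count + 1), by limma 3.58.1 with a trend (R 4.3.3), so that fold changes of low genes are understated. On simulated counts for G2/SCR over 18947 genes, 38.2%, 85.8% and 95.4% of genes changed by 1.5-, 2- and 4-fold were called, with 1.27% of unchanged genes. As alternatives, recovered counts of G2 and SCR were tested with DESeq2 1.42.0 and with edgeR 4.0.16. Shares of paralogues used exact permutation tests over 56 groupings, adjusted by Benjamini-Hochberg. Neighbours were the 20 genes on each side with a mean of at least 100. Members and lists were chosen with earlier results of these data known. Genes named besides the members were those overlapping a member, the 5 most like CCNE2, and up to 3 per list called the same way in both G2 comparisons (RBL2, MYBL1 and CUL1); the other list genes were named after their values were seen, as were the motifs. Replicate numbers in the titles did not pair samples across lines (r = -0.03 to 0.04 over 7 pairs).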

Additional observations from a re-analysis of the deposited data

How the results depend on the processing

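Over the tested members, 500 values in alternative settings kept their direction and side of the threshold, 16 were no longer called, 6 became called and 9 changed sign. The number of members called in G2/SCR was 4 or 5 in every setting tried, beside 15.6% to 27.6% of all genes. In G2/WT it was 1 at a fold of at least 2 (16.8% of all genes) and 1 with the title numbers as a replicate block (29.8%). It was 1 to 3 there when 1 library was left out (26.8% to 32.4% of all genes), and 1 without G2 replicate 3 or WT replicate 1. In SCR/WT it was 2 at a fold of at least 2 (7.87% of all genes). The number specific to G2 was 1 under TMM scaling and 1 under the same total (CDKN1B), 2 with library-name numbers as a replicate block (CCND1 and CDKN1B), and 0 to 1 with 1 library left out. With the title numbers as a replicate block, the CCNE1 call in G2/WT was lost (-0.56), and with library-name numbers the CCND1 call in SCR/WT was lost (0.555) and CDKN1B was called in G2/WT (0.591). No fit with a replicate block moved another member count by over 1.5 times. Sign changes under the same total were seen in SCR/WT for CCND3 (0.069), CCNE1 (0.179), RB1 (0.003) and PRPF40B (0.163). With 1 library left out, log2 values that changed sign ranged in G2/WT from -0.167 to 0.221 for CCND3, -0.102 to 0.104 for CCNE2 and -0.153 to 0.173 for RB1, and in SCR/WT from -0.21 to 0.016 for CCNE1 and -0.234 to 0.007 for PRPF40B. The difference in the CCND1 share was 1.01 to 1.87 points, and that in the CCNE1 share -21.1 to -16.4 points (p = 0.0286 to 0.0571, exact permutation), when 1 library was left out. Of all genes, 31.4% in G2/WT and 23.1% in SCR/WT were called under the same total, in either direction, most of them higher. E2F targets lower in G2/WT and SCR/WT numbered 9 and 10 under the same total. They numbered 18 to 21 and 22 to 24 with 1 library left out, and these settings were chosen after seeing the data. The same total assumes equal RNA per library, and the cause of these differences was not tested. WT has only 2 libraries.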
